A study of Mus musculus with 2 samples.

Results

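Wild-type mouse ES cells carrying at least 2 *Lin28a* transcripts in a droplet-based single cell RNA-seq library were compared with cells of the same library in which no *Lin28a* transcript was counted. The cells were chosen by their measured *Lin28a* counts, so their *Lin28a* level is a description and not a result. A barcode was kept when it held at least 5000 unique molecular identifiers (UMIs, each standing for 1 captured transcript), between 0.5% and 20% of its UMIs on mitochondrially encoded genes, at least 5% on ribosomal protein (RP) genes and under 0.3% on the collagen genes *Col1a1*, *Col1a2* and *Col3a1*. Of 4329 wild-type barcodes, 1234 reached the depth and 1002 were kept. Of these, 224 cells (22.4%) had 2 or more *Lin28a* UMIs and are called *Lin28a*-high here, 331 had 1 UMI, and 447 had 0 and served as the reference.

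The study asked how the loss of *Lin28a* changes mouse ES cells, with 1 inDrop library of wild-type and 1 of *Lin28a* knockout cells. Wild-type cells were untreated and came from clone a2.1, which went through the transfection without losing the gene. The knockout cells came from clone a3.5, made with a CRISPR/CAS9 guide against the second exon, so each genotype is 1 clone. Both lines derive from the inner cell mass and were grown for 2 days in LIF/2i medium over feeder fibroblasts on gelatin, a condition that holds ES cells in the naive state.

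*Lin28a* encodes an RNA-binding protein of pluripotent and embryonic cells. It binds precursors of the let-7 microRNAs and recruits terminal uridylyltransferases that mark them for decay, and it also binds many mRNAs. Mature let-7 in turn represses *Lin28a* and a set of growth genes through short seed matches in their 3′ UTRs, so the protein and the microRNA form a mutual repression loop. The protein can be found in the cytoplasm and in the nucleolus, where ribosomal RNA is made.

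The let-7 guides and their matches in *Lin28a* are shown because this loop is the best known link between *Lin28a* and other transcripts. In 3 let-7 family members (RefSeq, GRCm38.p6) the seed, bases 2 to 8, stands in capitals, and outside the seed the sequences differ at few positions.
let-7a-5p: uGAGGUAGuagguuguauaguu
let-7e-5p: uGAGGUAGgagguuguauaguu
let-7g-5p: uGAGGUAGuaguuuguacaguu
In all, 11 mature mouse miRNAs of that table share this seed. The longest annotated *Lin28a* 3′ UTR (GENCODE M21, 2775 bases) holds the complementary 7 letters, CTACCTC, at 2 places, given in capitals within 30 bases each. The first lies 909 bases into the UTR (chr4:134005182-134005211 of GRCm38, minus strand) and the second 1547 bases into it (chr4:134004544-134004573, minus strand).
first match: gcacagcctgttgaaCTACCTCatttttgc
second match: gagatcgccacaaacCTACCTCactgtgtt
Both are exonic. They mark where let-7 could pair and carry no measurement of binding.

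*Lin28a* (ENSMUSG00000050966.9, chr4:134003330-134018841, minus strand) had 925 UMIs in the 1002 kept cells, or 119.5 CPM (counts scaled to a total of 1000000 UMIs; exact Poisson interval at 95%, 112 to 128), of which the *Lin28a*-high cells held 594, or 64.2%. Most of these cells were close to the limit. Exactly 2 UMIs were counted in 131 cells, 3 in 58, 4 in 23, 5 in 7, 6 in 4 and 7 in 1 cell. Summed over cells, the level was 131 CPM (118 to 146) with 1 UMI, 235 CPM (207 to 265) with exactly 2 and 373 CPM (334 to 415) with 3 or more. The *Lin28a*-high cells together reached 296 CPM (273 to 321). These levels are ordered by construction.

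Depth decided in part which cells entered. Between 5000 and 7500 UMIs 14.8% of the kept cells were *Lin28a*-high (83 of 559), between 7500 and 10000 UMIs 26.1% (81 of 310), and above that 45.1% (60 of 133). The median depth was 8087 UMIs in *Lin28a*-high cells, 7304 in cells with 1 UMI and 6775 in the reference. All ratios below were therefore formed within these 3 depth ranges and then combined. The top range has no upper limit and is matched less closely. There the median depth was 11918 UMIs in *Lin28a*-high cells (at most 27958) and 11131 in the reference (at most 15349). A cell with 0 UMIs may still contain *Lin28a* mRNA that was not captured, so the reference is a class of lower counts, not of cells without the transcript.

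**Figure D1:**
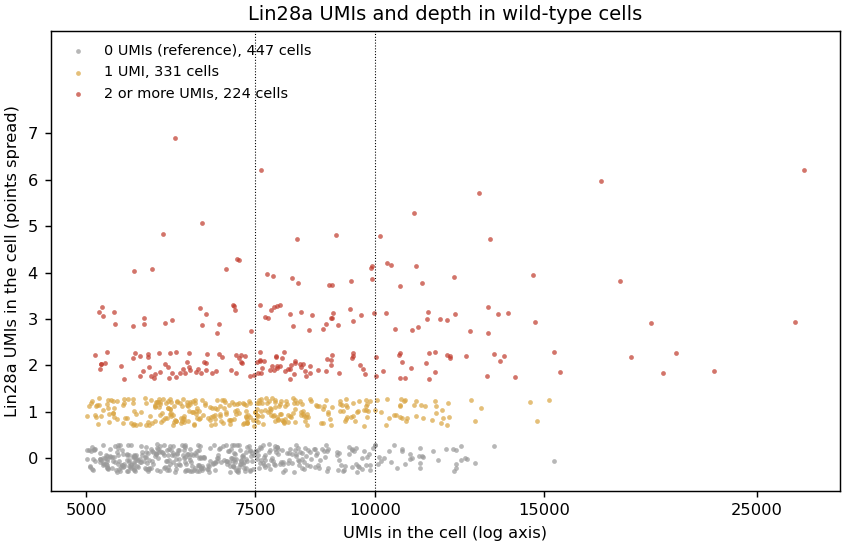
*Lin28a* UMIs (vertical axis, points spread around each whole number) against all UMIs of the cell (horizontal log axis) for the 1002 kept wild-type cells, coloured by class, with dotted lines at 7500 and 10000 UMIs. Cells with 2 or more *Lin28a* UMIs occur at every depth and make up 14.8% of the shallowest and 45.1% of the deepest range.

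The spread of *Lin28a* over cells was wider than that of most genes at its level. With every cell taken at 5000 UMIs, its variance over mean was 1.17 at a mean of 0.589 UMIs per cell, against a median of 1.08 for 681 protein-coding genes whose mean differed from it by less than the fold used below (10th to 90th percentile 1.02 to 1.17). Of those genes 90.3% had a lower value. In the knockout library the value was 1.15 at a mean of 0.195 UMIs, above 91.7% of 1340 genes.

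Some barcodes lay just outside the limits. At any depth 279 wild-type barcodes had 2 or more *Lin28a* UMIs. The limit of 5000 UMIs left out 34 of them, the deepest at 4983 UMIs, while the shallowest *Lin28a*-high cell had 5098. The other 21 were left out for a mitochondrial share under 0.5%, the nearest at 0.494% against 0.511% in the lowest *Lin28a*-high cell. None of them failed the RP or collagen limit. The 196 deep barcodes with a low mitochondrial share, whatever their *Lin28a* count, had 67.8 CPM of *Lin28a* and a median RP share of 15.5%. The 38 collagen-rich barcodes had 3 *Lin28a* UMIs in 414197, or 7.24 CPM (1.49 to 21.2), in 7.89% of cells at a median depth of 9890.5 UMIs. A single *Lin28a* UMI thus occurred in some of them, and none held 2. They were set apart by collagen share alone and may include ES cells or doublets.

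The cells carried the markers of naive ES cells. *Pou5f1*, the POU factor at the base of pluripotency, was found in 99.6% of *Lin28a*-high cells, and *Zfp42*, a naive marker, in all 224. *Nanog* was found in 88.4% and *Esrrb*, an orphan nuclear receptor of the naive network, in 83.9%. Most single markers chosen for other cells were near 0, but the wider lists held higher members. The primitive endoderm list, of which *Sparc* made 62.9%, was found in 96.0% of *Lin28a*-high and 90.6% of reference cells. The trophoblast list, of which *Tfap2c* made 38.3%, was found in 52.7% and 49.0%. Among the single markers, *Fgf5* of primed epiblast had 1 UMI over the 224 cells. *Gata4* and *Gata6* of primitive endoderm had 2 and 1, and *Cdx2* of trophoblast 5. Higher were *Eomes* of the trophoblast markers, with 29 UMIs in 10.3% of *Lin28a*-high and 42 in 9.17% of reference cells, and *Dnmt3b* of the primed markers, with 200 UMIs in 53.6% and 246 in 37.6%. All shares of cells in this paragraph are not depth-matched, and *Lin28a*-high cells were deeper (median 8087 against 6775 UMIs). With each cell taken at 5000 UMIs, *Dnmt3b* was found in 37.9% and 28.8%. Feeder fibroblast genes, of which the rule itself limits the collagens, were low, with 40 UMIs of *Col1a1*, 3 of *Col3a1* and 0 of *Postn*, and the whole fibroblast list stood at 479 CPM against 465 in the reference, of which *Fn1*, which ES cells also express, made 89.2%. The depth-matched ratio of that list was 0.999 (0.916 to 1.09). Scrublet marked 4 of the 224 cells and 8 of the 447 reference cells as doublets.

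Both libraries are single, so no test was made and cells were not treated as replicates. Intervals at 95% cover counting error only. The wild-type file held 12079546 UMIs and the knockout file 10027710 over 6060 barcodes. Barcodes were renumbered in each file, so barcodes shared by the libraries could not be counted.

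Across the transcriptome *Lin28a*-high cells differed little from the reference. Counting error also places cells in either class, so the classes can overlap in their true *Lin28a* level. Ratios near 1 therefore do not show how cells with more *Lin28a* mRNA differ from others. Ratios of summed CPM, depth-matched, were formed for the 2084 genes with at least 500 UMIs over both classes, *Lin28a* left out. Their median was 1.005, with 90% of genes between 0.880 and 1.15 and a full range from 0.758 to 1.35. A gene was counted as past the fold when one class was at most 0.8 times the other. Past it were 19 genes higher in *Lin28a*-high cells, or 0.912% of those compared, and 7 lower, or 0.336%. Which genes passed depended on the setting, since 13 of the 19 and 1 of the 7 remained without depth bins, and 3 and 0 against a reference of 0 or 1 UMIs. Most of these were among the more thinly counted genes, where counting error is widest. Under 1000 UMIs lay 18 of the 19 higher and 6 of the 7 lower genes, compared with 1130 of all 2084. The number of genes detected per cell was also alike. At 5000 UMIs a median of 2621 genes was found in *Lin28a*-high cells (quartiles 2572 and 2665), 2619 in cells with 1 UMI and 2611 in the reference.

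**Figure D2:**
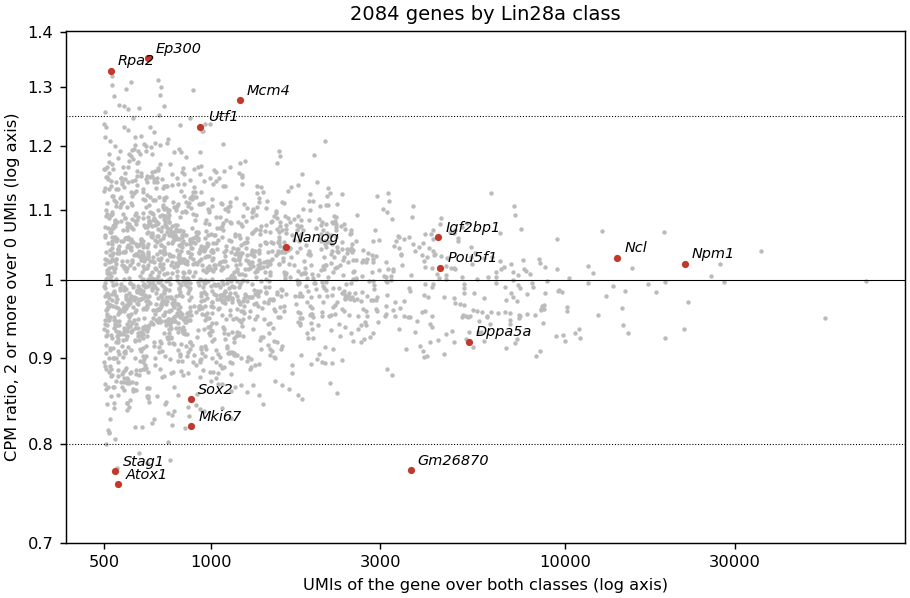
Depth-matched CPM ratio of *Lin28a*-high over reference cells (vertical log axis) against the UMIs of each gene over both classes (horizontal log axis) for 2084 genes, with dotted lines where one class is 0.8 times the other and some genes named. Ratios narrow towards 1 as UMIs increase, and most genes past a dotted line lie below 1000 UMIs, with *Gm26870* at 0.772 and *Mcm4* at 1.28 the exceptions.

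*Ep300*, a histone acetyltransferase and transcriptional co-activator (chr15:81585351-81652077), had the highest ratio. It stood at 151 CPM (135 to 169) in *Lin28a*-high cells and 112 CPM (101 to 125) in the reference, a ratio of 1.35 (1.15 to 1.59), which was above 1 in all 3 depth ranges (1.36, 1.29 and 1.44). Cells with a single *Lin28a* UMI lay between the classes, at 1.10 times the reference. A UMI of *Ep300* was found in 49.4% of *Lin28a*-high and 39.6% of reference cells when each was taken at 5000 UMIs.

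The large and the middle subunit of replication protein A, which coats single-stranded DNA, were both among the highest genes. *Rpa2* had a ratio of 1.33 (1.11 to 1.59) and *Rpa1* one of 1.30 (1.08 to 1.57). The ratio of *Rpa2* was 1.58 in the shallowest range but 1.02 in the deepest. *Rrp9*, a component of the U3 small nucleolar ribonucleoprotein that processes ribosomal RNA, was at 1.32 (1.09 to 1.59), with 1.34 already in cells with 1 UMI. Against those cells with 1 UMI, *Rrp9* in *Lin28a*-high cells was at 0.976.

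The remaining genes of the highest 10 were of mixed function. *Jup*, the junctional protein plakoglobin, had a ratio of 1.31 (1.12 to 1.54), and *Mob1a*, a co-activator of the Hippo kinases, one of 1.31 (1.10 to 1.55). *Grsf1*, an RNA-binding protein of mitochondrial RNA granules, was at 1.30 (1.08 to 1.55), *Rars*, the arginyl-tRNA synthetase, at 1.29 (1.12 to 1.49) and *Dbi*, an acyl-CoA-binding protein, at 1.29 (1.10 to 1.51). *AC161456.1* was at 1.30 (1.11 to 1.52), but it is annotated as a transcript overlapping another gene in sense, so its reads cannot be told from that gene's with certainty. In 17 of the 19 higher genes the ratio was above 1 in all 3 depth ranges, although the ranges hold the same cells that chose the genes. With cells of exactly 1 *Lin28a* UMI as the reference, a comparison chosen after seeing the data, 2 of the 19 remained past the fold.

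Genes lower in *Lin28a*-high cells were fewer. *Atox1*, a copper chaperone, stood at 90.2 CPM (77.6 to 104) against 114 CPM (103 to 126), a ratio of 0.758 (0.627 to 0.916), the lowest of all. It was below 1 in all 3 depth ranges (0.768, 0.789 and 0.705). *Stag1*, a cohesin subunit, was at 0.772 (0.635 to 0.937), yet at 1.01 in the deepest range. *Tle4*, a Groucho co-repressor, had a ratio of 0.775 (0.643 to 0.934). *Prc1*, which bundles microtubules in the mitotic midzone, was at 0.780 (0.657 to 0.925) and below 1 in all 3 ranges. *BC005537* was at 0.783 (0.665 to 0.922), and *E2f4*, a repressor E2F of quiescent cells, at 0.791 (0.660 to 0.948). Only 3 of the 7 lower genes were below 1 in all 3 depth ranges.

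The long noncoding RNA *Gm26870* was the most counted of the genes past the fold, with 1334 UMIs in *Lin28a*-high and 2321 in reference cells. Its ratio was 0.772 (0.719 to 0.829), but the ranges gave 0.661, 1.02 and 0.629, and without depth ranges it was 0.921. The 3 genes that complete the lowest 10 did not reach the fold. *Sdc4*, a heparan sulfate proteoglycan, was at 0.803, and the processed pseudogenes *Gm48082* and *Rpsa-ps5*, whose reads may belong to their parent genes, were at 0.8001 and 0.806.

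Among pluripotency genes 0 of the 8 core and 0 of the 9 naive genes compared passed the fold, beside 0.912% of all genes compared higher and 0.336% lower. Of the members too thinly counted for the comparison, *Dppa3*, a maternal factor of the early embryo, had 9 UMIs against 5, a ratio of 3.86 (0.824 to 18.0), and *Dppa4* 90 against 160, a ratio of 0.841 (0.642 to 1.10), both picked after their values were seen. The core list of 10 genes was at 0.960 times the reference (0.927 to 0.994), and leaving out *Dppa5a*, the largest member at 33.9% of its UMIs, gave 0.9805 (0.940 to 1.02). *Pou5f1* stood at 846 CPM against 853 CPM, a ratio of 1.02 (0.953 to 1.08). *Dppa5a*, an RNA-binding protein of early embryonic cells, was at 0.920 (0.866 to 0.977). *Sox2*, the SRY-box partner of OCT4, was the lowest of the 8 core genes compared, at 148 CPM against 181 CPM and a ratio of 0.851 (0.732 to 0.989). It was below 1 in all 3 ranges and at 0.925 in cells with 1 UMI. *Tdgf1*, *Sall4* and *Zfp281* lay between 0.944 and 0.974.

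The naive list of 16 genes was at 1.002 (0.972 to 1.03). *Zfp42* had a ratio of 0.991 (0.927 to 1.06), *Klf4* 1.02 (0.947 to 1.11), *Klf5* 1.02 (0.945 to 1.11) and *Tfcp2l1* 0.999 (0.892 to 1.12). *Tbx3* and *Nanog* were at 1.04 and 1.05. The counting interval of each of these naive factors included 1.

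The primed epiblast list had the largest ratio of the pluripotency groups, 1.15 (1.05 to 1.27), but it rests on few UMIs. Its sum was 407 CPM against 349 CPM, and 48.2% of it was *Utf1*, a chromatin-associated factor of undifferentiated cells. *Utf1* stood at 200.4 CPM against 166 CPM, a ratio of 1.23 (1.07 to 1.42), just short of the fold. Without it the list gave 1.09 (0.9503 to 1.24). *Dnmt3b*, a de novo DNA methyltransferase, was at 99.7 CPM against 76.6 CPM, a ratio of 1.28 (1.05 to 1.56), with a UMI at 5000 UMIs per cell in 37.9% of *Lin28a*-high and 28.8% of reference cells. It had 446 UMIs in all and so was not among the genes compared. *Fst*, an activin antagonist, was at 1.26 (0.879 to 1.79) and *Dnmt3a* at 1.09 (0.751 to 1.58), while *Zic2* was at 0.741 (0.490 to 1.12). *Fgf5*, *Otx2* and *Pou3f1*, which define the primed state, had 1, 3 and 16 UMIs in *Lin28a*-high cells. In the reference they had 3, 8 and 38, and their ratios were below 1, at 0.693, 0.539 and 0.701. *Cdh2* and *Lef1* were also below 1, at 0.675 and 0.585. *Sox4*, at 1.46 on 12 against 13 UMIs, and *Sall2*, on 2 against 1, were above 1. The counting intervals of *Fgf5*, *Otx2*, *Pou3f1*, *Cdh2*, *Lef1*, *Sox4* and *Sall2* all included 1. In cells with 1 *Lin28a* UMI the list was at 0.981 (0.897 to 1.07), with exactly 2 at 1.14 and with 3 or more at 1.18.

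De novo methylation genes overlap that list. The DNA methylation list of 9 genes was at 1.09 (1.04 to 1.15), with 1.13 at exactly 2 UMIs and 1.03 at 3 or more. Its member with the highest ratio was *Dnmt3l*, the catalytically inactive cofactor, at 58.8 CPM against 41.4 CPM and 1.396 (1.06 to 1.83). *Dnmt3l* lay outside the rule for named genes and was picked after its value was seen. *Tet1*, a 5-methylcytosine oxidase that made 39.4% of the list, was at 1.04.

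**Figure D3:**
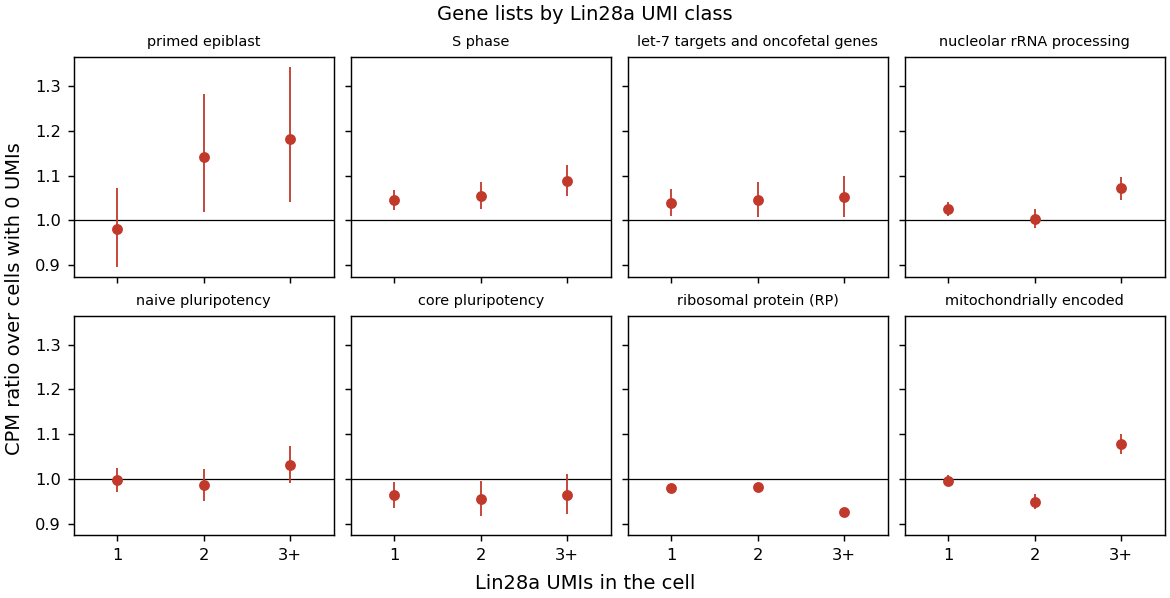
Depth-matched CPM ratio over cells with 0 *Lin28a* UMIs (vertical axis, bars give 95% counting intervals) for 8 gene lists in cells with 1, exactly 2, and 3 or more *Lin28a* UMIs (horizontal axis). The primed list goes from 0.981 to 1.18 and S phase from 1.05 to 1.09, while mitochondrially encoded genes are at 0.949 with 2 UMIs and at 1.08 with 3 or more.

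The let-7 list holds 19 growth and oncofetal genes, most of them with the seed match printed above (14 of 19 in their longest 3′ UTR). Summed, it was at 1.05 times the reference (1.02 to 1.09), and 0 of its 9 genes among those compared passed the fold, near the share over all genes (0.912% higher and 0.336% lower). *Igf2bp1*, an RNA-binding oncofetal protein with 4 matches, stood at 863 CPM against 824 CPM, a ratio of 1.06 (0.993 to 1.13). *Hmga1*, an architectural chromatin protein with 1 match, was at 1.06 (0.987 to 1.14), and *Trim71*, a stem cell ubiquitin ligase with 4 matches, at 1.04 (0.948 to 1.15). *Cdc25a*, the cell cycle phosphatase, was at 1.04, *Igf2bp3* at 0.979 and *Cdc34* at 0.961. Other members were too thinly counted for the comparison. *Hmga2*, with 4 matches, had 81 UMIs in *Lin28a*-high and 96 in reference cells, a ratio of 1.396 (1.02 to 1.91). *Lin28b*, the paralog, had 12 in each, a ratio of 1.51 (0.592 to 3.87). Some members with 0 matches had higher ratios than *Hmga2*. *Ccnd2*, a D-type cyclin, was at 1.97 (1.15 to 3.39) on 39 against 29 UMIs and *Myc* at 1.48 (1.09 to 2.004) on 82 against 92. *Igf2bp2*, with 1 match, was at 1.28 (1.01 to 1.62). Other thinly counted members were below 1, with *Arid3a* (2 matches) at 0.859, *Arid3b* (1 match) at 0.902 and *Plagl2* (1 match) at 0.908. *E2f6* was at 1.68 and *Mycn* at 1.07. The counting intervals of *Arid3a*, *Arid3b*, *Plagl2*, *E2f6* and *Mycn* all included 1. *Hmga2*, *Lin28b*, *Ccnd2*, *Myc*, *Igf2bp2*, *Arid3a*, *Arid3b*, *Plagl2*, *E2f6* and *Mycn* were picked after their values were seen.

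Genes with a seed match did not stand apart in their median. Of the 1712 genes compared that have an annotated 3′ UTR, 142 (8.29%) held CTACCTC on the sense strand of their longest UTR. Their median ratio was 1.01, equal to the 1.01 of the 1570 genes without it, and 2 of them were past the fold upward and 1 downward, beside 0.912% and 0.336% of all genes compared. For cells with 3 or more *Lin28a* UMIs the medians were 1.03 and 1.02. Mature let-7 itself was not measured in these libraries.

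Genes of microRNA processing were at 1.05 (1.002 to 1.104) as a list of 13 genes matched. *Ago2*, the slicing Argonaute, was at 1.08 (0.985 to 1.19), *Drosha*, the nuclear processor of primary microRNAs, at 1.08 (0.891 to 1.30) and the RNA helicase *Ddx5* at 1.02 (0.942 to 1.11). The uridylyltransferases that LIN28A recruits were at 0.9999 (0.807 to 1.24) for *Tut7* and 0.941 (0.744 to 1.19) for *Tut4*. Of the 4 members compared 0 passed the fold, beside 0.912% of all genes compared higher and 0.336% lower. Of the other members under 500 UMIs, *Prkra* was at 0.840, *Tarbp2* at 1.01, *Ago1* at 1.07 and *Xpo5* at 1.08, with intervals that included 1. Another 3 had intervals above 1. All of these were picked after their values were seen, and the share of all thinly counted genes with such intervals was not computed. *Dicer1*, which cuts precursor microRNAs, was at 1.41 (1.05 to 1.88) on 100 against 121 UMIs, *Dgcr8*, the partner of DROSHA, at 1.47 (1.03 to 2.11) on 66 against 85, and *Dis3l2*, an exonuclease of uridylated RNA, at 1.84 (1.04 to 3.23) on 30 against 29.

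Nucleolar and ribosomal genes differed little and in different directions. The 24 genes of nucleolar rRNA processing were at 1.03 (1.01 to 1.05), with 1 gene, *Rrp9*, past the fold upward of the 19 compared, beside 0.912% of all genes. The list was at 1.004 in cells with exactly 2 UMIs and 1.07 with 3 or more. *Npm1*, a nucleolar chaperone listed by the study as a LIN28A partner, stood at 4301 CPM against 4071 CPM, and its depth-matched ratio was 1.02 (0.993 to 1.05). *Ncl*, nucleolin, was at 1.03 (0.994 to 1.07). The 14 matched genes of the RNA polymerase I machinery, which transcribes ribosomal RNA, were at 1.05 (0.998 to 1.10), and translation factors at 0.988 (0.977 to 0.999). *Eef1a1* made 37.4% of the translation factor UMIs, and without it that list gave 1.01 (0.997 to 1.03).

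RP genes, which helped to choose the cells through the 5% limit, were lower by a small amount. Their sum was at 0.962 times the reference (0.956 to 0.968). The ratio was 0.979 and 0.991 in the shallow ranges and 0.896 above 10000 UMIs, and it was 0.985 when those deep cells were left out. The median RP share of a cell was 8.47% (quartiles 7.61% and 9.55%) in *Lin28a*-high and 8.87% (7.89% and 9.94%) in reference cells, so the classes overlapped almost wholly. Of the 82 RP genes compared 0 passed the fold, beside 0.912% of all genes compared higher and 0.336% lower. The RP genes that the study names as LIN28A partners, *Rpl5*, *Rpl23*, *Rpl26*, *Rps6*, *Rps7* and *Rps19*, lay between 0.952 and 1.001. The partner list of 11 genes, which also holds *Rpl11*, named in the study but not among the partners, was at 0.993 (0.978 to 1.01).

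The 43 S phase genes were at 1.07 times the reference (1.04 to 1.10), with 1.06, 1.08 and 1.07 in the 3 depth ranges, and at 1.05 in cells with 1 *Lin28a* UMI and 1.09 with 3 or more. Of the 22 compared, 2 passed the fold upward and 0 downward, beside 0.912% and 0.336% of all genes, and the median ratio of the 22 was 1.096 against 1.005 for all. They were *Rpa2* and *Mcm4*, a subunit of the replicative helicase, which stood at 264 CPM against 210.1 CPM, a ratio of 1.28 (1.13 to 1.44). *Pcna*, the sliding clamp of DNA polymerase, was at 1.02 (0.949 to 1.10). Other members were lower, such as *Rrm1*, the large subunit of ribonucleotide reductase, at 0.832 (0.718 to 0.964). The median S phase share per cell was 0.622% of UMIs in *Lin28a*-high and 0.585% in reference cells, with quartiles of 0.530% and 0.714% against 0.489% and 0.699%.

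The 55 genes of G2 and mitosis were at 0.983 (0.964 to 1.001), and 0 of the 33 compared passed the fold, near the 0.912% higher and 0.336% lower of all genes. *Mki67*, the proliferation antigen of the mitotic chromosome surface, was at 156 CPM against 177 CPM, a ratio of 0.820 (0.711 to 0.945). It was at 1.07, 0.804 and 0.607 in the 3 depth ranges, and at 1.03 in cells with 1 *Lin28a* UMI. Replication-dependent histones were at 1.01 as a sum but at 1.12 in cells with exactly 2 UMIs and 0.853 with 3 or more. Mitochondrially encoded genes, whose share helped to choose the cells, were at 0.999 and went the opposite way, with 0.949 (0.932 to 0.967) and 1.08 (1.06 to 1.10). The intervals cover counting error only, not differences between groups of cells.

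**Figure D4:**
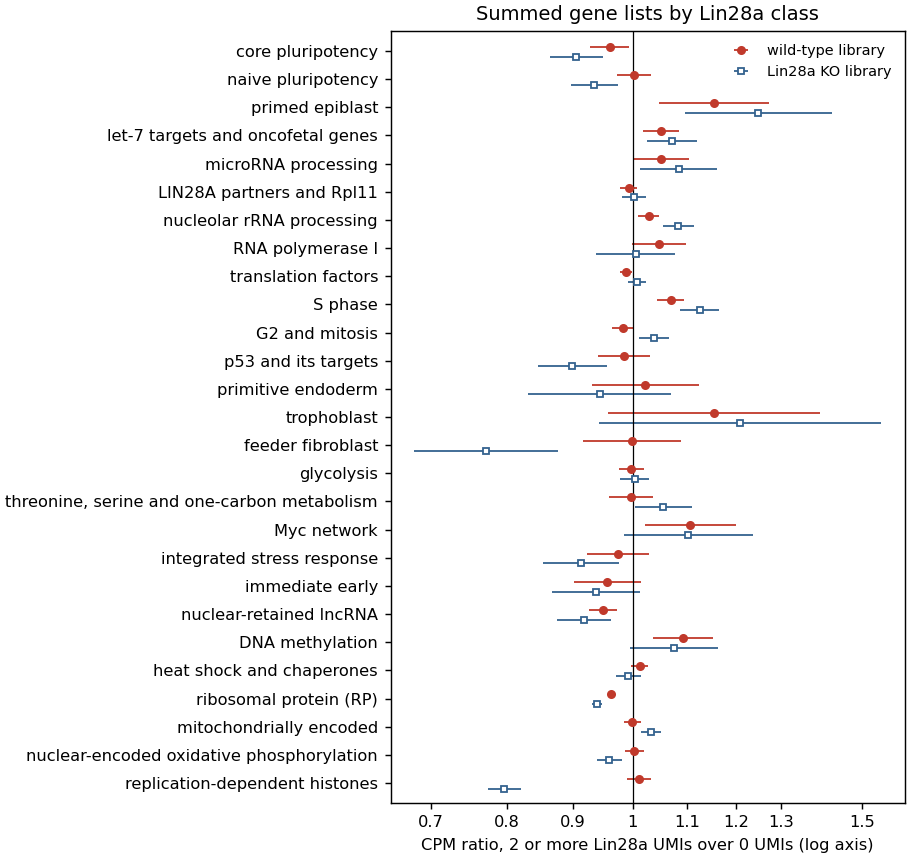
Depth-matched CPM ratio of cells with 2 or more over cells with 0 *Lin28a* UMIs (horizontal log axis, bars give 95% counting intervals) for 27 gene lists in the wild-type library (red points) and the *Lin28a* KO library (open squares). In the wild-type library all 27 lists lie between 0.949 and 1.15, and the knockout library shows primed epiblast at 1.249, S phase at 1.13 and RP genes at 0.939.

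Several metabolic and stress lists lay close to the reference. Glycolysis was at 0.997, threonine, serine and one-carbon metabolism at 0.997, heat shock and chaperones at 1.01 and nuclear-encoded oxidative phosphorylation at 1.003. p53 and its targets were at 0.985 (0.941 to 1.03), the integrated stress response at 0.974 and immediate early genes at 0.956 (0.900 to 1.01). The 11 genes of the Myc network, transcription factors of growth control, were at 1.11 (1.02 to 1.20), of which 43.2% was *Mga*. Nuclear-retained noncoding RNAs were at 0.949 (0.925 to 0.973). *Malat1* made 73.7% of their UMIs, and without it they were at 0.985 (0.938 to 1.03). Primitive endoderm genes were at 1.02 (0.929 to 1.12) and trophoblast genes at 1.15 (0.957 to 1.39) on 211 and 296 UMIs.

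Genes of the 2C program, which mark the 2-cell embryo and rare ES cells, were almost undetected. Over 23 genes *Lin28a*-high cells had 8 UMIs and reference cells 13, in 3.57% (exact binomial interval 1.55% to 6.92%) and 2.46% (1.23% to 4.36%) of cells. These shares are not depth-matched. The depth-matched ratio of the list was 0.919 (0.336 to 2.52), so a difference of this program was not detectable at this depth. Only 6 of the 23 genes had a UMI in either class. *Usp17la* made 66.7% of the UMIs, and without it the ratio was 1.41 (0.161 to 12.4).

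Neighbouring genes on chromosome 4 all had counting intervals that included 1, some of them wide. The nearest, *Dhdds*, lies 2412 bases away and had 19 and 34 UMIs, a ratio of 0.916 (0.517 to 1.62). *Hmgn2*, a nucleosome-binding protein, was at 1.06 (0.929 to 1.21), *Sh3bgrl3* at 1.04 (0.840 to 1.28) and *Rps6ka1*, a ribosomal S6 kinase, at 0.865 (0.714 to 1.05). *Crybg2* had 20 and 40 UMIs, a ratio of 0.819 (0.440 to 1.53), and *Ubxn11* 18 and 33, a ratio of 0.880 (0.491 to 1.58).

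The same split was made in the knockout library, whose cells the choice of members had not used. *Lin28a* mRNA was still counted there, at 42.1 CPM (37.2 to 47.5) in 632 kept cells. UMIs are counted towards the 3′ end and do not test an edit in the second exon. Of these cells 57 (9.02%) had 2 or more *Lin28a* UMIs and 451 had 0, at median depths of 12901 and 8475 UMIs, a wider gap than in the wild-type library. Few of the genes past the fold were past it there. Of the 19 genes higher in wild-type *Lin28a*-high cells 14 were countable, and 5 of them were above 1, as were 50.3% of the 1769 wild-type-compared genes countable there. Just 1 of the 14 was past the fold, against 3.84% of all, which was *Tia1*, an RNA-binding protein of stress granules, with a ratio of 1.253 (1.01 to 1.56) in knockout cells beside 1.27 in wild-type cells. Of the 7 lower genes 4 were countable, 2 were below 1, *Atox1* at 0.852 and *E2f4* at 0.944, and 0 reached the fold, against 49.7% and 3.28% of all.

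Of the 28 gene lists 17 stood on the same side of 1 as in the wild-type library and 11 on the other. In the wild-type library the interval left out 1 for 11 lists, and 10 of these were on the same side. Of the 17, the interval in the knockout library left out 1 for 11. The primed list was at 1.249 (1.096 to 1.42) and S phase at 1.13 (1.09 to 1.16). The let-7 list was at 1.07 (1.02 to 1.12) and nucleolar rRNA processing at 1.08 (1.05 to 1.11). Core pluripotency was at 0.905 (0.864 to 0.948) and RP genes at 0.939 (0.931 to 0.947). The others were microRNA processing at 1.08, p53 and its targets at 0.898 and the integrated stress response at 0.912. Nuclear-retained noncoding RNAs were at 0.918, and feeder fibroblast genes at 0.771 (0.679 to 0.876). Of the 11 on the other side the knockout interval left out 1 for 6, but the wild-type intervals of these 6 all included 1. These were histones at 0.797, naive pluripotency at 0.934 (0.896 to 0.974), nuclear-encoded oxidative phosphorylation at 0.959 (0.938 to 0.981), mitochondrially encoded genes at 1.03 (1.01 to 1.05), G2 and mitosis at 1.04 and threonine, serine and one-carbon metabolism at 1.06. Of the primed genes, *Utf1* was at 1.31 (1.10 to 1.57), beside 1.23 in wild-type cells. *Dnmt3b* was at 1.23 (0.893 to 1.70) on 49 and 237 UMIs, beside 1.28, but here its interval included 1. *Zic2* went the other way, at 1.68 (0.958 to 2.95) beside 0.741. The depth of the classes, the clone and the culture cannot be told apart in these values, and LIN28A protein was not measured in either library. Outside these libraries, the study reports loss of the protein by western blot in its CRISPR/CAS9 clones.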

How the data were processed

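For 1 wild-type and 1 *Lin28a* knockout inDrop library the authors deposited UMI counts (genes by barcodes, not normalized) made with a published inDrop pipeline. The submitters' processing notes name the build mm10 and Seurat 2.3.4. The aligner is not given in the sources used here. The files also list UMIs ambiguous between genes (63462 and 58924 in all, 0 for *Lin28a*), which were not used. Of 54146 identifiers, 54079 had a symbol in GENCODE M21 (GRCm38). The members, gene lists and comparisons were chosen with earlier results of these data known. Barcodes were filtered as given above and split by *Lin28a* UMIs.

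UMIs of a class were added up in depth bins with edges at 7500 and 10000 UMIs and combined as a Mantel-Haenszel ratio of CPM with a Greenland-Robins interval. CPM carry exact Poisson and shares exact Clopper-Pearson intervals at 95%, which cover counting error only. Genes per cell, shares of cells and variance over mean were also computed at 5000 UMIs from the hypergeometric distribution. In the knockout library a gene was countable with at least 500 UMIs over both classes. Named genes are the 10 highest and 10 lowest ratios among genes with at least 500 UMIs, up to 6 members with at least 100 UMIs of the pluripotency, let-7, microRNA and partner lists, *Pcna*, *Mki67* and 3 neighbours on each side of *Lin28a*. Any other gene was named after its value was seen. The ratio was tested on simulated data. Alternatives were other bins, weights, *Lin28a* limits, references, scalings, filters and removal of Scrublet doublets. Ratios and intervals used scipy 1.17.1 and numpy 2.4.6 in Python 3.11.15, doublets scanpy 1.11.5, tables pandas 2.3.3 and figures matplotlib 3.10.9.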

Additional observations from a re-analysis of the deposited data

Results flagged for a closer look

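The ratio of cells with 2 or more over cells with 0 *Lin28a* UMIs was set side by side in the libraries for the 63 genes named by rule. For 3 of them it was past the fold (one class at most 0.8 times the other) in opposite directions. Each library is a single sample, and the difference was not tested. Of all genes compared, 0.912% were past the fold upward and 0.336% downward in the wild-type library. In the knockout library 3.84% and 3.28% of the countable genes were. The share of all genes past it in opposite directions was not computed. *Gm26870* was at 0.772 (0.719 to 0.829) in the wild-type library and 1.62 (1.397 to 1.89) in the knockout library. *Stag1* was at 0.772 (0.635 to 0.937) and 1.35 (1.01 to 1.80), on 63 and 261 UMIs in the knockout classes, too few to be countable there. *Zic2* was at 0.741 (0.490 to 1.12) and 1.68 (0.958 to 2.95), on 18 and 58 UMIs in the knockout classes. It had 37 and 72 UMIs in the wild-type classes, too few to be among the genes compared, and both intervals included 1.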

How the results depend on the processing

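The counts of 19 higher and 7 lower genes, of 2084 compared, depended on the limits, and so did the number of genes compared. A fold of 1.5 left 0 and 0 of 2084. A minimum of 1000 UMIs per gene left 1 and 1 of 954, and a minimum of 200 UMIs gave 156 and 128 of 4600. With at least 3 *Lin28a* UMIs the counts were 45 and 34 of 1630 genes, over fewer cells. Higher genes numbered 12 of 3017 with at least 1 *Lin28a* UMI and 10 of 1577 without cells of 10000 or more UMIs. Lower genes numbered 11 of 2084 with each cell weighted equally and 17 of 3017 against a reference of 0 or 1 UMIs. Under some alternatives the sets changed more than the counts. Without depth bins 13 of the 19 and 1 of the 7 remained, and against a reference of 0 or 1 UMIs 3 and 0. Cells with exactly 1 *Lin28a* UMI as the reference, a reference chosen after seeing the data, left 2 and 0, and took *Rrp9* to 0.976. A mitochondrial limit of 10% removed no cell. Of 334 list values under the alternatives 306 stayed within the counting interval of the list and 28 moved out of it. Of 756 values of named genes 731 stayed, 24 moved out and 1, that of *Rrp9*, crossed 1 from past the fold. These tallies include the mitochondrial limit of 10%, under which no value could change. Lists near 1 crossed it under some alternatives, such as histones (0.829 to 1.02), G2 and mitosis (0.978 to 1.02), p53 and its targets (0.967 to 1.03) and 2C genes (0.687 to 1.85). The primed list ranged from 1.05 to 1.18, S phase from 1.02 to 1.09, the let-7 list from 1.02 to 1.06, core pluripotency from 0.946 to 0.991 and RP genes from 0.926 to 0.985. Counting error at this depth hides small differences of single genes, and the cause of the changes in the sets was not tested. No paired analysis was possible because the result comes from no test and each condition has 1 library.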
